A study of Mus musculus with 9 samples.

Results

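The genes described here are 42 genes of DNA replication and of the passage from G1 into S phase, chosen from known function by a list of gene symbols that covers origin licensing, helicase activation, the sliding clamp and its loader, DNA synthesis, deoxynucleotide supply, the G1/S cyclins and E2F factors, and chromatin assembly. The choice was made with earlier results of these data known. Of the 42, 40 were measured by a probe set annotated to 1 gene, among 22180 genes in all. None of the 40 passed the test between Hmgn5 siRNA and control siRNA at 24 h. Of all genes, 0.00902% were called higher there and 0.00451% lower. The median log2 difference of the 40 was 0.18, and 38 of 40 lay above 0 (49.2% of all genes). Most of that shift, however, came with Hmgn5 siRNA array 3. The median was 0.08 without it, and 0.23 without Hmgn5 siRNA array 1 or array 2. Between 4 h and 24 h in control cells 1 of the 40, E2f1, passed the test, where 2.17% of all genes were called higher. E2f1 rose 1.31-fold, and its call was lost when any array other than control 4 h array 1 was left out. The E2f1 difference itself ran from 0.30 to 0.46 log2 units over 21 alternatives. Between control cells at 4 h and Hmgn5 siRNA cells at 24 h, time and siRNA differ together. There E2f1, Gins1, Rfc3 and Cdc6 rose, by 1.34-fold to 1.59-fold, where 1.52% of all genes were called higher. None of the 40 was called without control 4 h array 3 or without Hmgn5 siRNA array 1. The median of this last comparison was 0.30, and 0.13 without Hmgn5 siRNA array 3 and control 4 h array 2. Those 2 arrays had the highest and the lowest median of the 40 genes and were chosen after seeing the values. A smaller difference without them thus follows largely from the choice.

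Before a cell can copy its DNA, the origin recognition complex with Cdc6 and Cdt1 loads the ring-shaped Mcm helicase at replication origins in G1, and cyclin-dependent kinases then fire those origins as Cdc45 and the GINS complex join the helicase. Cyclin E and its kinase release E2F factors from retinoblastoma proteins, and free E2F switches on many of the genes that S phase needs, among them those for the helicase, the clamp Pcna and the enzymes that make deoxynucleotides. Neuroblastoma cells divide in culture, and many leave the cell cycle when they are made to differentiate, so these genes are commonly read as marks of cycling cells.

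Expression was measured in N1E-115, an established mouse neuroblastoma line that extends neurites when serum is withdrawn, on 9 whole-transcript arrays, 3 in each of 3 groups. One group received control siRNA and was collected at 4 h of differentiation, another received control siRNA and was collected at 24 h, and the third received a pool of siRNAs against Hmgn5, which encodes a nucleosome-binding protein, and was collected at 24 h. All groups shared an siRNA dose of 80 nM, a night without serum and replating on laminin at 10 µg/ml, and the series asks how Hmgn5 bears on neurite growth. The labels name no genotype beyond the cell line, no separate cultures and no sequences of either siRNA, so p-values reflect only how far these samples scatter, and that scatter may be technical. Hmgn5 siRNA at 4 h was not analysed here, so an effect of the siRNA is seen at 24 h only. Values are log2 expression after the authors' normalization, and a gene was called at a limma adjusted p under 0.05 over all 22180 genes. In RNA from whole cultures, fewer cells in S phase and less RNA per such cell cannot be told apart.

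The Hmgn5 signal checked the labels: it stood at 4.71 ± 0.06 log2 units with control siRNA and 3.49 ± 0.04 with Hmgn5 siRNA at 24 h (mean ± SD, n = 3), a fall to 43.1% of control (limma adjusted p = 0.00367). That call was lost when control 24 h array 1, Hmgn5 siRNA array 2 or Hmgn5 siRNA array 3 was left out, with adjusted p up to 0.0558. Over the 20 alternatives that held Hmgn5 the call was kept in 16, and the limma adjusted p reached 0.200. The signal was dim: both means lay below every array median, and Hmgn5 dropped out when the dimmest 33% of genes were removed. Array medians lay between 5.16 and 5.30, and control 4 h array 2 stood apart with an array weight of 0.198 against 0.789 to 1.74 for the others. Of 9 measured sympathetic neuroblastoma markers, Th, Dbh, Hand2 and Chga lay at percentiles 98.2 to 99.5 of all genes, whereas Ddc, the decarboxylase of catecholamine synthesis, lay at percentile 37.2. Levels of Gata2, Gata3, Isl1 and Slc18a2 are not given here. Dbh and Th were called higher over time, by 0.80 and 0.53 (limma adjusted p = 0.00534 and 0.0188), and 8 of the 9 lay above 0. For the siRNA none was called, Slc18a2 (-0.36) and Dbh (-0.42) had the smallest p, and 4 of the 9 lay above 0. Markers of glia, fibroblasts, leukocytes and endothelium gave no call among 30 measured genes, and their medians on each array lay within -0.13 and 0.07 of the 24 h control mean. Over time, 2.17% of all genes were called higher and 2.17% lower. These values compare the groups, and without levels they do not show whether such cells were present. All 40 measured replication and G1/S genes were above the dimmest 33% of genes, the lowest being Orc1 at percentile 45.2, and 17 of them (42.5%, against 53.3% of all genes) had exactly equal values on 2 or more arrays.

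E2F proteins bind words of the form TTTCCCGC, TTTGGCGC, TTTCGCGC and TTTGCCGC, and these words were looked for on both strands in RefSeq promoter windows (build GRCm38.p6, 250 bases before to 50 bases after each annotated start). At least 1 window was found for 35 of the 42 genes. An E2F-type word occurred in 14 of their 41 windows (34.1%), belonging to 14 genes, against 2.26% of all 32851 windows and 2.85% of the windows of protein-coding genes. The same words were in 26.2% of windows of other replication genes, 22.7% of other G1/S regulators, 13.0% of checkpoint and fork repair genes and 3.70% of G2 and mitosis genes. CCAAT, a frequent promoter word, was in 63.4% of the windows of the replication and G1/S genes against 37.4% of all windows. TTTGAA or TTCGAA, the cell cycle homology words of genes used late in the cycle, were in 17.1% against 19.2% of all windows and 81.5% of the windows of G2 and mitosis genes. Words were matched exactly, overlaps between words were allowed, and a match describes letters in the window, not a bound site.

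The promoters of 4 genes described in full below are shown because they hold such a word upstream of the start and had the smallest unadjusted p between the times among those that do. Capitals mark the E2F-type words, each sequence runs 5′ to 3′ on the strand of its gene and ends at the base before the start. For Uhrf1, which has 2 windows, the stretch at chr17:56304063-56304312 (plus strand) has its word 185 to 178 bases before the start. For Rfc3, at chr5:151651209-151651328 (minus strand), the word lies 10 to 3 bases before the start. For Cdc6, at chr11:98907901-98908150 (plus strand), it lies 138 to 131 bases before the start and is read on the opposite strand. For Mcm5, at chr8:75109259-75109508 (plus strand), 2 words overlap, 153 to 142 bases before the start.
Uhrf1: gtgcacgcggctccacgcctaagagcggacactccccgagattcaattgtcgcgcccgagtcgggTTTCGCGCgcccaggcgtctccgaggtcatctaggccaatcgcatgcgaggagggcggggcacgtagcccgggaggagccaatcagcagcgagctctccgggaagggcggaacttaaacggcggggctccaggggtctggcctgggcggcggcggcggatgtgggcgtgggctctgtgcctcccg
Rfc3: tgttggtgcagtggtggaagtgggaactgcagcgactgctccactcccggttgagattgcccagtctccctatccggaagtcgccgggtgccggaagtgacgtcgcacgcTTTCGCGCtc
Cdc6: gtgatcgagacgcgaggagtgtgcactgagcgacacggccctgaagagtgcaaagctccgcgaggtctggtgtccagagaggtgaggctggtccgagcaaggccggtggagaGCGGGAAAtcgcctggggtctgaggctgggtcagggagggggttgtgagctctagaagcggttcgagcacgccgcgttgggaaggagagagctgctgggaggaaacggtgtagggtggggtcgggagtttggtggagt
Mcm5: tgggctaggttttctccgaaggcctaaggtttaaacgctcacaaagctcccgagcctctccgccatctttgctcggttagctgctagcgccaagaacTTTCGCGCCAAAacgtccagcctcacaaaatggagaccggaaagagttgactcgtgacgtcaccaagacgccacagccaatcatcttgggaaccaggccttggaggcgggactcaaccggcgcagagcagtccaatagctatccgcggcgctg
The windows of E2f1 and Tk1, which had large differences between the times, held none of the 4 words.

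Hmgn5 siRNA was compared with control siRNA at 24 h. None of the 40 genes was called in either direction, where 0.00902% of all genes were called higher and 0.00451% lower, and the lowest adjusted p was 0.883. Differences ran from -0.13 for Gins3 to 0.38 for Cdc6, with a median of 0.18, against a median of -0.00193 over all genes. The 2 genes below 0 were Gins3 and Slbp, while 49.2% of all genes lay above 0. At an unadjusted p under 0.05, 5 genes were higher (Cdc6, Mcm4, Gins1, Rfc3 and Pola1) and none lower, where 2.39% of all genes were higher. The 3 Hmgn5 siRNA arrays lay above all 3 control arrays for 13 of the 40 (6.65% of all genes), and below them for none.

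**Figure D1:**
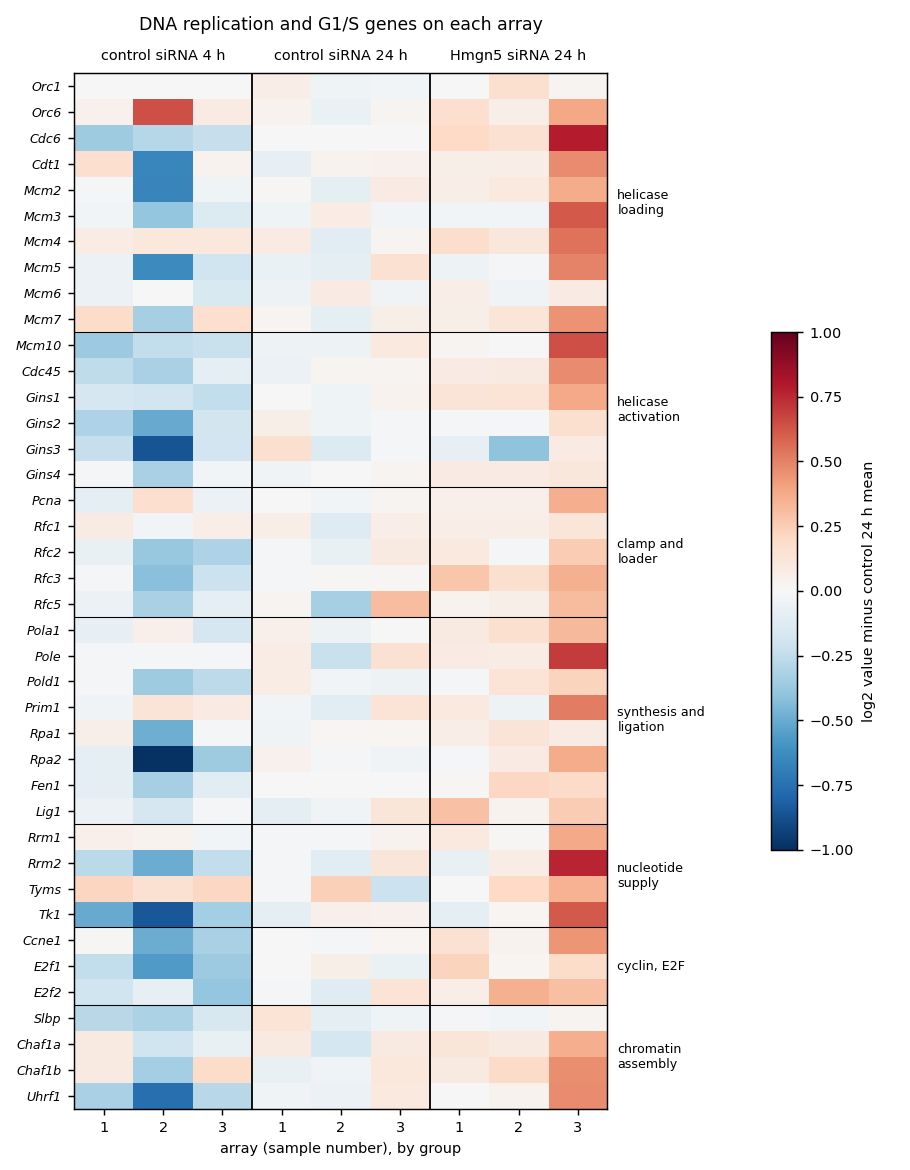
Log2 value of each of the 40 measured genes (rows, ordered by role) on each of the 9 arrays (columns, by group and sample number) relative to the average of the control arrays at 24 h; red is higher and blue lower. Hmgn5 siRNA array 3 lay above the control mean for 40 of 40 genes, and control 4 h array 2 was the lowest of its group for 27 of 40.

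The shift at 24 h was uneven among the Hmgn5 siRNA arrays. Measured from the 24 h control mean, the median over the 40 genes was 0.06, 0.07 and 0.37 on Hmgn5 siRNA arrays 1, 2 and 3, with 30, 31 and 40 genes above 0. Array 3 thus stood well above its 2 fellows, whereas the control arrays at 24 h gave -0.00285, -0.04 and 0.03. Array 3 was the highest of its group for 34 of the 40 genes (85% against 33.4% of all genes) and the lowest for none. By role its median ran from 0.27 for helicase activation to 0.50 for deoxynucleotide synthesis, so array 3 lay above the control mean in every role. The median SD of the 40 genes within the Hmgn5 siRNA group was 0.171, against 0.0766 for all genes, and within the 24 h control group 0.0764 against 0.0786. Without Hmgn5 siRNA array 3 the differences ran from -0.24 to 0.22 with a median of 0.08, 33 of 40 stayed above 0, and 38 of 40 were smaller than with it. The median was 0.23 without Hmgn5 siRNA array 1 or array 2. Leaving out control 24 h array 1, 2 or 3 gave 0.16, 0.16 and 0.22.

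**Figure D2:**
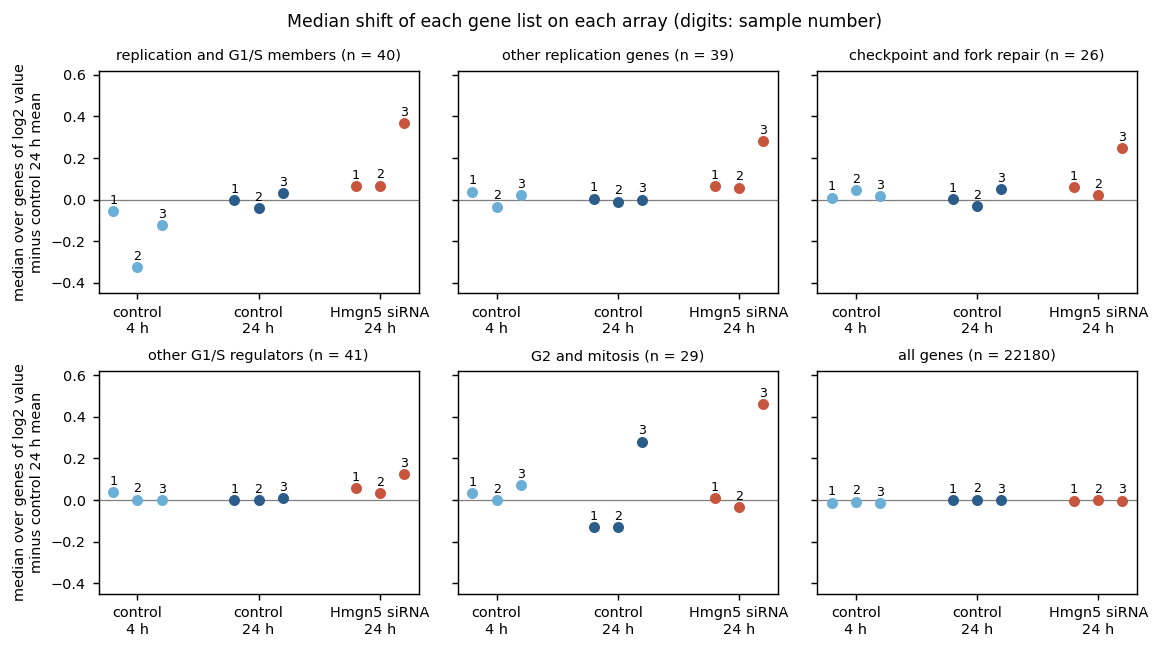
Median over the genes of each list of the log2 value minus the 24 h control mean, 1 point per array with its sample number, in panels for the 40 replication and G1/S genes, 4 related lists and all genes. Hmgn5 siRNA array 3 gave 0.37 for the replication and G1/S genes and 0.46 for G2 and mitosis genes, and all genes stayed near 0 on every array.

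Genes of G2 and mitosis, which mark a later part of the cycle, set the arrays apart in another way. Their median over 29 genes was -0.13, -0.13 and 0.28 on control 24 h arrays 1, 2 and 3, and 0.01, -0.04 and 0.46 on the Hmgn5 siRNA arrays. The arrays numbered 3 were the highest of their group for 29 of 29 of these genes in both 24 h groups. For the replication and G1/S genes, control 24 h array 3 was the highest of its group in 19 of 40 (47.5% against 31.3% of all genes). The part of this array pattern in the siRNA difference was measured by leaving arrays out: with both 24 h arrays numbered 3 removed, the median of the 40 genes was 0.09, with 34 above 0. What these arrays share besides a number is not given in the labels.

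In control cells, 24 h was compared with 4 h. E2f1 was called higher and none of the 40 was called lower, where 2.17% of all genes were called higher and 2.17% lower. The median difference was 0.18, against 0.0157 over all genes, and values ran from -0.26 for Orc6 to 0.56 for Tk1. Of the 40 genes, 32 lay above 0, where 54.9% of all genes did. The 8 below 0 were Orc6, Mcm4, Mcm7, Pcna, Rfc1, Prim1, Rrm1 and Tyms. At an unadjusted p under 0.05, 9 genes were higher and none lower, where 9.38% of all genes were higher. The arrays of the 2 times did not overlap for 14 genes: 13 were higher at 24 h (11.3% of all genes) and Orc6 was lower (9.98% of all genes).

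Control 4 h array 2 took a large part in this difference. Against the 24 h control mean, the 40 genes had medians of -0.06, -0.32 and -0.12 on control 4 h arrays 1, 2 and 3. Array 2 was the lowest of its group for 27 of 40 genes (67.5% against 36.3% of all genes). Without it the median difference between the times was 0.10, 29 of 40 lay above 0, 28 of 40 were smaller and none was called. Leaving out control 4 h array 1 or array 3 instead gave medians of 0.23 and 0.20. With both control 4 h array 2 and Hmgn5 siRNA array 3 removed, Cdc6, Tk1 and Uhrf1 were called higher at 24 h and E2f1 was not. The share of all genes called in that fit is not given here, so this count cannot be set against it.

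**Figure D3:**
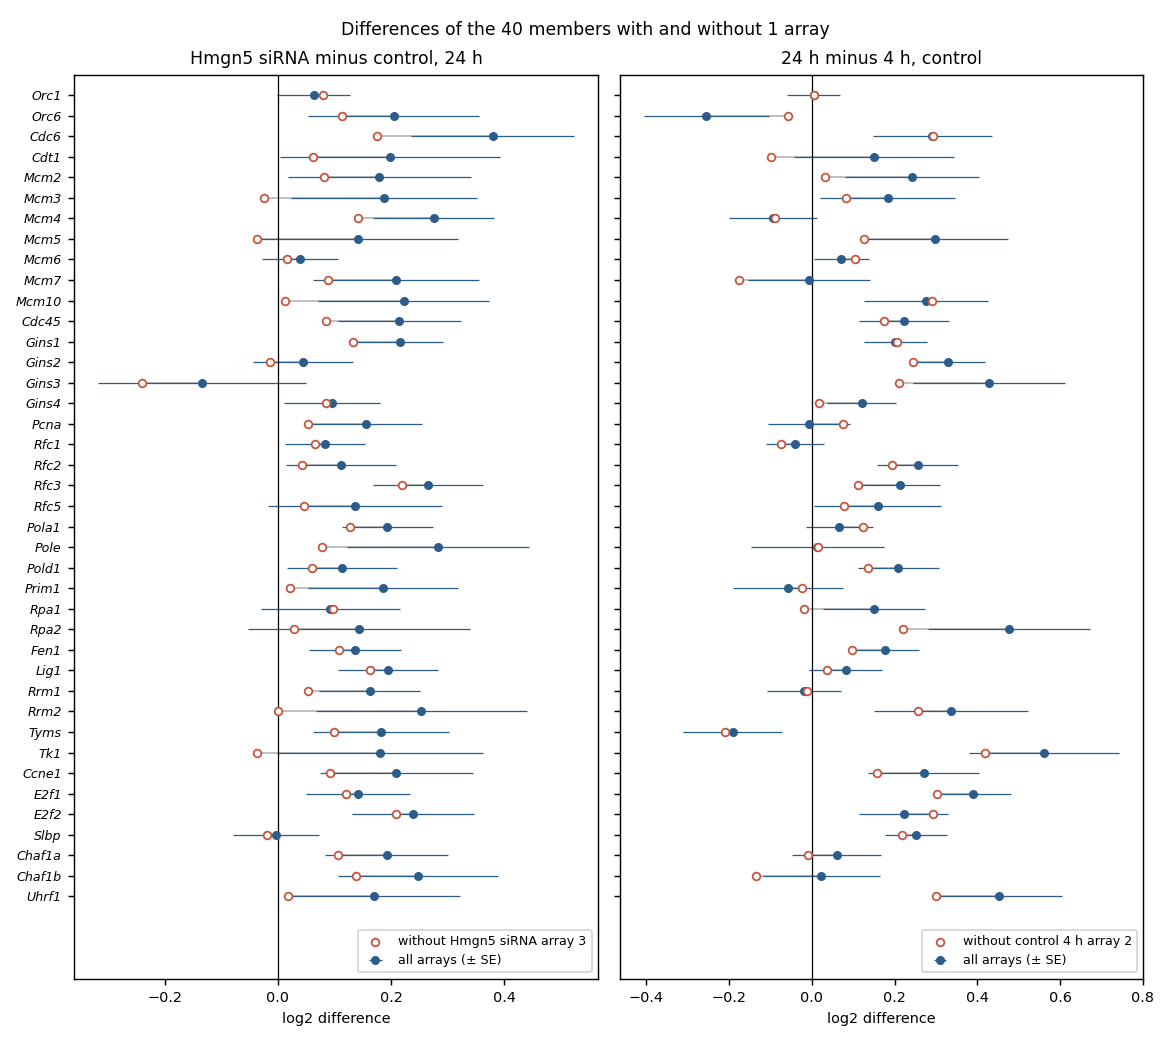
Log2 difference of each of the 40 genes with all arrays (filled points, bars ± SE) and with 1 array left out (open points): Hmgn5 siRNA array 3 for the siRNA difference on the left, and control 4 h array 2 for the time difference on the right. The median over the genes was 0.18 with all arrays and 0.08 without the array on the left, and 0.18 and 0.10 on the right.

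Cells with Hmgn5 siRNA at 24 h were also compared with control cells at 4 h. This comparison uses the arrays of both others, so it is no separate evidence for either. E2f1, Gins1, Rfc3 and Cdc6 were called higher and none lower, where 1.52% of all genes were called higher and 1.04% lower. The median of the 40 differences was 0.30, against 0.00619 over all genes, with 38 above 0 and Orc6 and Tyms below (51.9% of all genes lay above 0). At an unadjusted p under 0.05, 24 were higher (8.53% of all genes) and none lower. For 25 genes the Hmgn5 siRNA arrays lay above all 3 control 4 h arrays (10.3% of all genes). Without Hmgn5 siRNA array 3 the median was 0.24 and 1 gene, Cdc6, was called. Without control 4 h array 2 it was 0.23 and 4 were called. Without both, a pair chosen after the values were seen, it was 0.13 and 2 were called, with 34 of 40 above 0. Leaving out control 4 h array 1 or 3 gave medians of 0.37 and 0.34. Leaving out Hmgn5 siRNA array 1 or 2 gave 0.37 and 0.38. Shares of all genes called in these fits are not given here.

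Origin recognition and helicase loading were covered by 10 genes. Cdc6, which brings the helicase to origins, read 6.26, 6.33 and 6.39 at 4 h, 6.62, 6.62 and 6.62 at 24 h with control siRNA, and 6.82, 6.77 and 7.41 with Hmgn5 siRNA. Each group lay wholly above the one before it, and Hmgn5 siRNA array 3 stood highest. The difference was 0.38 (SE 0.14, limma adjusted p = 0.926) for the siRNA and 0.29 (SE 0.14, limma adjusted p = 0.330) for time, neither called, and Cdc6 rose by 0.67 (SE 0.14, limma adjusted p = 0.0443) between control cells at 4 h and Hmgn5 siRNA cells at 24 h, or 1.59-fold. That call held without Hmgn5 siRNA array 3 (adjusted p = 0.0234) and was lost without any other single array (adjusted p up to 0.106). The 3 control arrays at 24 h hold exactly the same Cdc6 value, so their spread is 0, which lowers the pooled error. The error of Cdc6 thus rests on scatter in the other groups and on the limma prior from all genes.

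Among the Mcm helicase subunits, Mcm4 had the smallest p for the siRNA. Its values were 9.34, 9.36 and 9.36 at 4 h, 9.34, 9.16 and 9.28 at 24 h and 9.43, 9.37 and 9.80 with Hmgn5 siRNA. The Hmgn5 siRNA arrays lay just above the control ones at 24 h except for array 3, which was clearly higher, and the difference was 0.28 (SE 0.11, limma adjusted p = 0.926). Mcm5 read 8.54, 7.96 and 8.40 at 4 h, 8.54, 8.51 and 8.75 at 24 h and 8.55, 8.58 and 9.10 with Hmgn5 siRNA. Array 2 was low at 4 h and array 3 high with Hmgn5 siRNA, the groups overlapped between the times, and the time difference was 0.30 (SE 0.18, limma adjusted p = 0.429). Mcm2, Mcm3, Mcm6 and Mcm7 had siRNA differences of 0.18, 0.19, 0.04 and 0.21, none called. For Mcm3 the Hmgn5 siRNA arrays read 7.91, 7.91 and 8.55, so that 2 of them sat at the control level of 7.89, 8.01 and 7.91.

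Orc6, a subunit of the origin recognition complex, had the lowest time difference of the 40 genes. It read 8.63, 9.24 and 8.67 at 4 h, 8.63, 8.53 and 8.62 at 24 h and 8.76, 8.65 and 8.98 with Hmgn5 siRNA. All 3 control arrays at 24 h lay below the 4 h arrays, array 1 by a narrow margin, and 4 h array 2 stood far above the rest. The difference was -0.26, or -0.06 without control 4 h array 2. Cdt1, which loads the helicase with Cdc6, read 8.88, 8.07 and 8.75, 8.64, 8.75 and 8.76 and 8.78, 8.78 and 9.19 in the same order of groups, with 4 h array 2 far below its fellows. Orc1, the largest subunit of the recognition complex, had 3 equal values of 5.37 at 4 h and differences of 0.06 for the siRNA and 0.00 for time. Over the 10 genes the median difference was 0.19 for the siRNA and 0.11 for time.

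Helicase activation was covered by 6 genes. Gins1, a subunit of the GINS complex that joins the helicase when origins fire, read 5.93, 5.91 and 5.86 at 4 h, 6.11, 6.06 and 6.14 at 24 h and 6.23, 6.24 and 6.48 with Hmgn5 siRNA. The groups did not overlap, and each stood above the one before. Its difference was 0.22 (SE 0.076, limma adjusted p = 0.883) for the siRNA and 0.20 (SE 0.076, limma adjusted p = 0.195) for time, and across both Gins1 rose by 0.42 (SE 0.076, limma adjusted p = 0.0236), or 1.34-fold. The call was lost without control 4 h array 1 or 3 or any 1 of the Hmgn5 siRNA arrays (adjusted p up to 0.0762). Gins2, another subunit, read 8.23, 8.04 and 8.36 at 4 h, 8.60, 8.50 and 8.52 at 24 h and 8.52, 8.53 and 8.70 with Hmgn5 siRNA. All 6 arrays at 24 h lay above the 4 h arrays, with no step between the siRNAs, and the time difference was 0.33 (SE 0.089, limma adjusted p = 0.0738).

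Cdc45, the other partner of the helicase, read 6.30, 6.23 and 6.46 at 4 h, 6.49, 6.58 and 6.58 at 24 h and 6.63, 6.64 and 7.03 with Hmgn5 siRNA. The Hmgn5 siRNA arrays lay above the control ones, 2 of them narrowly, and the difference was 0.21 (SE 0.11, limma adjusted p = 0.979). Mcm10, which helps activate the helicase, read 7.33, 7.30 and 7.95 on the Hmgn5 siRNA arrays against 7.26, 7.26 and 7.40 on the control ones. Its groups overlapped, with Hmgn5 siRNA array 3 alone above the control range, and the siRNA difference of 0.22 was 0.01 without that array. Gins3 and Gins4 had siRNA differences of -0.13 and 0.10, and time differences of 0.43 and 0.12. All 6 genes lay above 0 between the times, with a median of 0.25.

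The sliding clamp and its loader gave 5 measured genes. Rfc3, a subunit of the loader, read 6.74, 6.34 and 6.55 at 4 h, 6.74, 6.77 and 6.77 at 24 h and 7.04, 6.92 and 7.11 with Hmgn5 siRNA. All 3 Hmgn5 siRNA arrays exceeded the other 6, and 4 h array 1 matched the control arrays at 24 h. The differences of 0.27 (SE 0.098, limma adjusted p = 0.926) for the siRNA and 0.21 (SE 0.098, limma adjusted p = 0.291) for time were not called, and Rfc3 rose by 0.48 (SE 0.098, limma adjusted p = 0.0361) across both, or 1.39-fold. Leaving out control 4 h array 1 or 2 kept this call, and leaving out any other array lost it (adjusted p up to 0.129). Without Hmgn5 siRNA array 3 the siRNA difference of Rfc3 was 0.22, the highest of the 40 genes in that fit, with no gene called.

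Pcna, the clamp that holds polymerases on DNA, read 10.42, 10.68 and 10.46 at 4 h, 10.51, 10.49 and 10.55 at 24 h and 10.57, 10.57 and 10.87 with Hmgn5 siRNA. The Hmgn5 siRNA arrays exceeded the control arrays at 24 h, by little except for array 3, and the difference was 0.15 (SE 0.099, limma adjusted p = 0.984). Rfc2 read 7.60, 7.30 and 7.37 at 4 h, 7.67, 7.60 and 7.76 at 24 h and 7.77, 7.67 and 7.93 with Hmgn5 siRNA. Its 4 h array 1 touched the 24 h range, and its time difference was 0.26 (SE 0.097, limma adjusted p = 0.198). Rfc1, the large subunit, and Rfc5 had siRNA differences of 0.08 and 0.14 and time differences of -0.04 and 0.16.

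DNA synthesis and the maturation of new strands were covered by 8 genes. Pola1, the catalytic subunit of the polymerase that starts strands with primase, read 7.09, 7.22 and 7.01 at 4 h, 7.22, 7.13 and 7.17 at 24 h and 7.27, 7.34 and 7.50 with Hmgn5 siRNA. The Hmgn5 siRNA arrays lay above the control ones at 24 h, and the difference was 0.19 (SE 0.081, limma adjusted p = 0.926). Lig1, the ligase that joins Okazaki fragments, read 7.46, 7.35 and 7.51 at 4 h, 7.43, 7.49 and 7.65 at 24 h and 7.81, 7.56 and 7.78 with Hmgn5 siRNA. Here Hmgn5 siRNA array 1 was as high as array 3 while array 2 fell within the control range, and the difference was 0.19 (SE 0.088, limma adjusted p = 0.951).

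Rpa2, a subunit of the single-strand binding protein, read 7.11, 6.21 and 6.84 at 4 h, 7.24, 7.18 and 7.16 at 24 h and 7.18, 7.27 and 7.57 with Hmgn5 siRNA. The 4 h arrays were the lower ones and spread widely, with array 2 far below the others. The time difference was 0.48 (SE 0.20, limma adjusted p = 0.237), and 0.22 without that array. Pold1, the catalytic subunit of polymerase delta, read 7.98, 7.64 and 7.74 at 4 h, 8.07, 7.97 and 7.95 at 24 h and 7.98, 8.13 and 8.21 with Hmgn5 siRNA. Its 4 h array 1 lay inside the 24 h range, and the time difference was 0.21 (SE 0.097, limma adjusted p = 0.297). Pole, the catalytic subunit of polymerase epsilon, reached 6.997, 6.98 and 7.61 on the Hmgn5 siRNA arrays against 6.98, 6.69 and 7.07 on the control ones, so that array 3 alone was above the control range. Prim1 of the primase, Rpa1 and the flap nuclease Fen1 had siRNA differences of 0.19, 0.09 and 0.14.

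Deoxynucleotide supply was covered by 4 genes, and Hmgn5 siRNA array 3 was the highest of its group for all 4. Tk1, the thymidine kinase that salvages thymidine in S phase, read 6.98, 6.64 and 7.15 at 4 h, 7.39, 7.54 and 7.52 at 24 h and 7.40, 7.50 and 8.10 with Hmgn5 siRNA. All 24 h arrays exceeded the 4 h arrays, and Hmgn5 siRNA arrays 1 and 2 sat at the control level. The time difference, at 0.56 (SE 0.18, limma adjusted p = 0.131) the widest of the 40, was not called. Rrm2, the S phase subunit of ribonucleotide reductase, read 6.25, 6.02 and 6.27 at 4 h, 6.51, 6.42 and 6.64 at 24 h and 6.45, 6.59 and 7.28 with Hmgn5 siRNA. Array 3 stood far above the other 8, and the time difference was 0.34 (SE 0.19, limma adjusted p = 0.388).

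Rrm1, the large subunit of the reductase, read 9.54, 9.52 and 9.47 at 4 h, 9.47, 9.47 and 9.52 at 24 h and 9.59, 9.50 and 9.87 with Hmgn5 siRNA. Array 3 with Hmgn5 siRNA was again the high one, the groups overlapped, and the siRNA difference was 0.16 (SE 0.089, limma adjusted p = 0.979). Tyms, the thymidylate synthase, read 8.12, 8.06 and 8.11 at 4 h, 7.88, 8.15 and 7.69 at 24 h and 7.91, 8.10 and 8.25 with Hmgn5 siRNA. The groups overlapped, the control arrays at 24 h were themselves uneven, and the siRNA difference was 0.18 (SE 0.12, limma adjusted p = 0.984), or -0.01 with both 24 h arrays numbered 3 left out.

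The G1/S cyclins and E2F factors gave 3 measured genes. E2f1, an activating E2F factor, read 8.69, 8.36 and 8.57 at 4 h, 8.93, 8.99 and 8.86 at 24 h and 9.15, 8.95 and 9.11 with Hmgn5 siRNA. All 6 arrays at 24 h exceeded all 3 at 4 h, and the siRNA groups overlapped. E2f1 rose in control cells by 0.39 (SE 0.092, limma adjusted p = 0.0460), or 1.31-fold, and by 0.53 (SE 0.092, limma adjusted p = 0.0190) between control cells at 4 h and Hmgn5 siRNA cells at 24 h, or 1.45-fold. The first call remained only when control 4 h array 1 was left out (adjusted p = 0.0382) and was lost without each of the others (adjusted p up to 0.155). The time difference itself ran from 0.30 to 0.46 over 21 alternatives. Hmgn5 siRNA arrays enter that comparison only through the shared error, not the difference. The second call was lost without control 4 h array 3, Hmgn5 siRNA array 1 or Hmgn5 siRNA array 3 (adjusted p up to 0.0859). The E2f1 time difference was also not called when arrays were centred on their medians (adjusted p = 0.0652) or when only the 2 groups were fitted (adjusted p = 0.106).

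E2f2, a second activating factor, read 6.45, 6.56 and 6.26 at 4 h, 6.62, 6.53 and 6.78 at 24 h and 6.71, 6.9997 and 6.94 with Hmgn5 siRNA. Neighbouring groups overlapped, arrays 2 and 3 with Hmgn5 siRNA being the highest, and the differences were 0.24 (SE 0.11, limma adjusted p = 0.950) for the siRNA and 0.22 (SE 0.11, limma adjusted p = 0.321) for time. Ccne1, cyclin E1, read 6.93, 6.43 and 6.60 at 4 h, 6.92, 6.91 and 6.95 at 24 h and 7.07, 6.96 and 7.37 with Hmgn5 siRNA. The Hmgn5 siRNA arrays lay above the control ones at 24 h, array 2 by a narrow margin, and the difference was 0.21 (SE 0.13, limma adjusted p = 0.984).

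Histone supply and chromatin assembly were covered by 4 genes. Uhrf1, which guides maintenance DNA methylation to new strands, read 8.03, 7.59 and 8.08 at 4 h, 8.32, 8.29 and 8.45 at 24 h and 8.35, 8.38 and 8.83 with Hmgn5 siRNA. The 24 h arrays were all above the 4 h arrays, array 2 at 4 h being the lowest and array 3 with Hmgn5 siRNA the highest. The time difference was 0.45 (SE 0.15, limma adjusted p = 0.144), and 0.30 without control 4 h array 2. Slbp, which binds the end of histone mRNAs, read 8.48, 8.44 and 8.60 at 4 h, 8.90, 8.66 and 8.72 at 24 h and 8.75, 8.73 and 8.79 with Hmgn5 siRNA. All 24 h arrays lay above the 4 h arrays, the siRNA groups were level, and the time difference was 0.25 (SE 0.076, limma adjusted p = 0.107).

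Chaf1a and Chaf1b are subunits of the factor that places histones on new DNA. Chaf1a read 6.70, 6.42 and 6.54 at 4 h, 6.70, 6.44 and 6.70 at 24 h and 6.74, 6.70 and 6.98 with Hmgn5 siRNA, and its siRNA groups touched at 6.70, with a difference of 0.19 (SE 0.11, limma adjusted p = 0.979). For Chaf1b the values were 8.53, 8.10 and 8.62 at 4 h, 8.37, 8.41 and 8.55 at 24 h and 8.53, 8.63 and 8.91 with Hmgn5 siRNA. Array 3 was the high one in the Hmgn5 siRNA group, array 1 fell within the control range, and the difference was 0.25 (SE 0.14, limma adjusted p = 0.979).

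**Figure D4:**
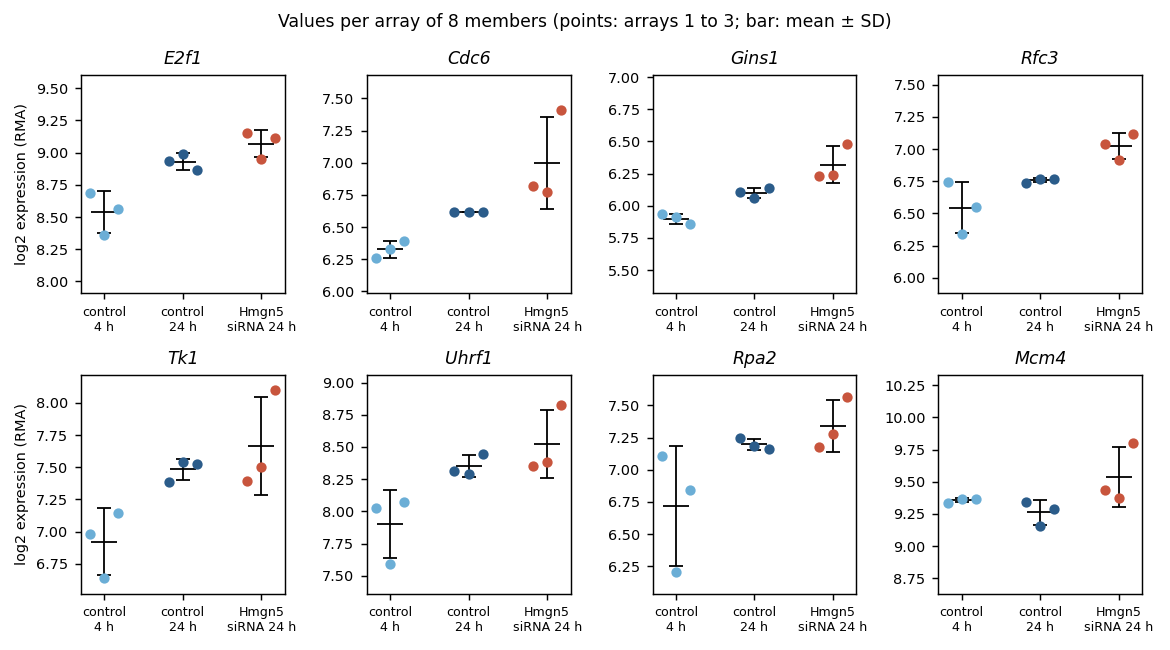
Log2 expression on each array (points, arrays 1 to 3 from left to right in each group) with the mean and SD (bars) for 8 of the genes; each panel has its own axis, which does not start at 0. E2f1, Cdc6, Gins1 and Rfc3 are the genes called in a comparison, and the Hmgn5 siRNA point on the right (array 3) is the highest of its group in every panel except that of E2f1.

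Ccne2, cyclin E2, and Rfc4, a clamp loader subunit, share their probe sets with Ints8 and Eif4a2, so their own levels were not measured. The set shared by Ccne2 and Ints8 read 8.42, 9.18 and 8.37 at 4 h, 8.25, 8.11 and 8.11 at 24 h and 8.47, 8.47 and 9.02 with Hmgn5 siRNA. Both outer groups lay above the control arrays at 24 h, with 4 h array 2 and Hmgn5 siRNA array 3 the highest, and the siRNA difference was 0.50 (SE 0.23), not called. The set shared by Rfc4 and Eif4a2 differed by 0.13 for the siRNA. Further probe sets annotated to a single one of the genes gave siRNA differences of -0.05 for Pole, -0.20 for Rpa1, -0.07 for Fen1 and 0.12 for Rrm2, so that for Pole, Rpa1 and Fen1 the dimmer probe set had the opposite sign to the one used. Those for Mcm7 shared with microRNA genes gave -0.04 and -0.03.

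Other genes of the same pathway were read from lists set by function, with earlier results of these data known. Over all genes, the siRNA gave 0.00902% called higher and 0.00451% lower. At an unadjusted p under 0.05, it gave 2.39% higher and 633 of 22180 lower. Between the times 2.17% were called higher and 2.17% lower, with 9.38% higher and 1920 of 22180 lower at that unadjusted p. Across both, 1.52% were called higher and 1.04% lower. Of 39 other replication genes, limma called none for the siRNA, 4 were higher and none lower at an unadjusted p under 0.05, and the median was 0.11 with 36 above 0. Their leaders were Topbp1, which helps fire origins (0.25), the nuclease Dna2 (0.23), Pole2 of polymerase epsilon (0.38) and Dut, which removes dUTP (0.24). On Hmgn5 siRNA array 3 their median was 0.28, against 0.07 and 0.06 on arrays 1 and 2. Between the times 2 of the 39, the origin recognition subunits Orc5 and Orc4, fell by 0.35 and 0.37 (limma adjusted p = 0.0225 and 0.0410), and the median was -0.02 with 18 above 0. Both calls depended on single arrays: that of Orc5 was lost without control 4 h array 3 or any 1 of the control arrays at 24 h (adjusted p up to 0.0867), and that of Orc4 was kept only without control 4 h array 1 or 2 (adjusted p up to 0.140). Orc2, with -0.57, was not called (adjusted p = 0.0521). At an unadjusted p under 0.05 between the times, 4 of the 39 were higher and 8 lower. Asf1b, a histone chaperone, rose by 0.81 between control cells at 4 h and Hmgn5 siRNA cells at 24 h (adjusted p = 0.0475), a call kept in 1 of 9 leave-outs, and Orc5 fell by 0.34 (adjusted p = 0.0345), also kept in 1.

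Of 41 other G1/S regulators, limma called none for the siRNA, and the median was 0.07 with 30 above 0. At an unadjusted p under 0.05, 5 were higher (2.39% of all genes) and 1 lower (633 of all 22180 genes). E2f6 (0.26), Tfdp2 (0.20), Skp2 (0.28) and Btg2 (-0.25) led, and the median on Hmgn5 siRNA array 3 was 0.12. Over time 3 were called higher and 2 lower, where 2.17% of all genes were called higher and 2.17% lower. At an unadjusted p under 0.05, 5 were higher (9.38% of all genes) and 7 lower (1920 of all 22180 genes). Ccng2, a cyclin found in arrested cells, rose by 1.24, Btg2, an antiproliferative factor, by 0.79, and Cdkn2d, an inhibitor of the cyclin D kinases, by 0.43 (limma adjusted p = 0.00209, 0.00358 and 0.00852). These 3 calls held in all 9 leave-outs. Tfdp2, a partner of E2F factors in DNA binding, fell by 0.44 (adjusted p = 0.00418), also in all 9. Cdkn1a, the p53-regulated kinase inhibitor, fell by 0.34 (adjusted p = 0.0468), a call kept only without control 4 h array 2. Across both, Ccng2, Btg2 and Cdkn2d rose by 1.03, 0.54 and 0.43 (adjusted p = 0.00718, 0.0226 and 0.0122). Here the call of Ccng2 held in all 9 leave-outs, that of Cdkn2d was lost without Hmgn5 siRNA array 1 (adjusted p = 0.0579), and that of Btg2 was lost without control 4 h array 1 or 3 or Hmgn5 siRNA array 1 or 2 (adjusted p up to 0.100).

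Among 26 checkpoint and fork repair genes the siRNA median was 0.11 with 22 above 0, and limma called none. At an unadjusted p under 0.05, 3 were higher (2.39% of all genes), led by Usp1, a deubiquitinase of repair proteins (0.39), and Mms22l, a fork repair factor (0.18). Over time 1 of the 26 was higher (9.38% of all genes) and 5 lower (1920 of all 22180 genes) at that unadjusted p. Hus1, a subunit of the checkpoint clamp, fell by 0.55 over time (limma adjusted p = 0.0113) and by 0.52 across both (adjusted p = 0.0190). The first call held in all 9 leave-outs, and the second was lost without any 1 of the Hmgn5 siRNA arrays (adjusted p up to 0.0840). The 29 G2 and mitosis genes had a siRNA median of 0.14 with 24 above 0 and no gene past an adjusted or an unadjusted p of 0.05. That median was -0.02 without Hmgn5 siRNA array 3, 0.28 without control 24 h array 3 and 0.11 without both. Between the times their median was -0.03 with 11 of 29 above 0, beside 0.18 with 32 of 40 above 0 for the replication and G1/S genes, and the mitotic cyclin Ccnb2 had a difference of -0.54 that was not called (adjusted p = 0.0537). These counts describe the lists, and no test set one list against another.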

How the data were processed

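RNA from 9 samples of N1E-115 cells was measured on whole-transcript arrays. The deposited table gives log2 expression for each probe set, and its values, per the submitters' processing notes, were made with oligo and RMA, whose versions are not given in the sources used here. RMA corrects background, normalizes by quantiles and summarizes probes, so these values cannot show a shift common to most genes. Of 41345 probe sets, 23521 had 1 gene symbol in the platform annotation, 1814 several and 16010 none. Each gene was read from the brightest of its 1-gene probe sets, by the mean over the 9 arrays, giving 22180 genes. Groups came from the sample titles. Tests used limma 3.58.1 in R 4.3.3 (lmFit, contrasts.fit, eBayes) with all 9 arrays in 1 fit of group means, 6 residual and 3.55 prior degrees of freedom, and Benjamini-Hochberg adjustment over all 22180 genes. The steps were tested on simulated data. Arrays give no read depth, and 3 arrays a group limit the precision.

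The genes and lists were chosen with earlier results of these data known. Given in full are genes called in a comparison and, in each role, the 2 with the smallest p for the siRNA and the 2 for time; of each other list up to 4 genes with the smallest p, and called genes. Values of other genes stand beside these to account for every gene. Alternatives were a replicate block, fitting just the pair of groups in question, a trended robust prior, array weights, removal of the dimmest 33% of genes, median centring, cyclic loess, averaging probe sets within a gene, a minimum of 1.5-fold, each array left out, and both 24 h arrays numbered 3 left out. Leaving out Hmgn5 siRNA array 3 with control 4 h array 2, and testing every probe set, were added after seeing the data. Promoter sequences are RefSeq's for GRCm38.p6. Coordinates of the array's probe sets are not used here.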

Additional observations from a re-analysis of the deposited data

Results flagged for a closer look

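The probe set shared by Ccne2 and Ints8 entered no count of genes, since its signal cannot be assigned to either gene. It was 0.50 higher on the log2 scale with Hmgn5 siRNA than with control siRNA at 24 h (SE 0.23), above the level of all 3 control arrays at 24 h, and limma called no difference there when every probe set was tested. Its values at 4 h were also above those of the control arrays at 24 h, by 0.50.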

How the results depend on the processing

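For the siRNA, the count of replication and G1/S genes called was 0 under every alternative run. For time, where 1 was called, the count was 0 in a fit of only the 2 groups compared, with arrays centred on their medians, with a minimum of 1.5-fold, with both 24 h arrays numbered 3 left out and with every probe set tested. It was 3 with Hmgn5 siRNA array 3 and control 4 h array 2 both left out, and 0 to 2 with single arrays left out. For Hmgn5 siRNA at 24 h against control siRNA at 4 h, where 4 were called, the count was 0 in the fit of 2 groups and with every probe set tested, 1 with a minimum of 1.5-fold and with both 24 h arrays numbered 3 left out, 2 with the pair of doubted arrays left out, and 8 with the dimmest 33% of genes removed. Single arrays left out gave 0 to 4. Without the pair of doubted arrays, which was chosen after seeing the values, the median was 0.13 in place of 0.30. The siRNA difference of Tyms reversed to -0.011 with both 24 h arrays numbered 3 left out. The causes were not tested, except that a minimum fold by its construction leaves fewer calls. With the replicate number as a block the calls were 0 for the siRNA, 1 for time and 7 across both. Shares of all genes called under the alternatives are not given here. The counts therefore show how calls moved and are no result about these genes. The numbers were not taken to pair the samples, because the labels do not say what a number shares. Deviations of same-numbered arrays correlated over all genes by 0.184, 0.0891 and 0.285 between the 24 h groups. Between the control groups they correlated by 0.0382, 0.0445 and 0.0624. Over the 40 genes alone these were 0.265, 0.143 and 0.287 between the 24 h groups, all over 0.1, and -0.051, -0.056 and 0.058 between the control groups. Arrays of different numbers in the 24 h groups correlated over all genes by -0.221 to 0.0810. Deviations were taken from the group mean, so they sum to 0 over the arrays of a group. The values for different numbers are therefore tied to those for the same number and are no separate evidence. Median centring moved the median of all genes over time from 0.0157 to 0.0551. Among values of single named genes, 1058 kept direction and side of the threshold, 145 lost a call, 13 gained one and 1 reversed.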
